A study of Mus musculus with 2 samples.

Results

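IAPLTR2b is one of the named groups of long terminal repeats (LTRs) that belong to intracisternal A particle (IAP) elements, a family of mouse endogenous retroviruses. All LTRs whose deposited name starts with IAPLTR2b were taken, which gave 576 loci of the 4799 IAP LTRs with a methylation level. The choice used the name and no measured value, and no LTR sequence was at hand to check the names. The levels come from targeted bisulfite sequencing of LTR junctions in 2 mouse cell lines with 1 library each. AB2.2 cells are embryonic stem (ES) cells, labelled strain 129, and Neuro2A cells come from a brain neuroblastoma, labelled strain A albino. No treatment is given for either line, and each stands for its cell type as a single line from a single strain. Every value below is therefore a description of 2 libraries with no replicate, spreads are over loci, the read depth behind a level is unknown, and no p-value is given. Cell type, tumour origin and strain cannot be told apart, and whether each copy is present in both strains was not tested.

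An IAP provirus carries an LTR at each end. The 5′ LTR holds the promoter that transcribes the element, the 3′ LTR provides the signal that ends the transcript, and both are copied from one template when the element inserts. Recombination between them can leave a solitary LTR behind. IAP copies are among the retroelements most firmly held silent in mouse cells, by DNA methylation at CpG sites and by histone marks that zinc finger proteins and TRIM28 bring to them. CpG methylation is maintained by DNMT1, and its loss from an LTR can allow the LTR to act as a promoter for neighbouring DNA.

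IAPLTR2b LTRs were mostly methylated in both lines, and the Neuro2A levels were lower and more scattered. In ES cells the lowest locus stood at 18.4%, the median at 82.2% and the highest at 97.9%. In Neuro2A cells the lowest stood at 2.3%, the median at 71.8% and the highest at 100%. The middle of the distribution, from the lower to the upper quartile, ran from 76.7 to 86.8% in ES cells and from 61.9 to 81.6% in Neuro2A cells, so the groups overlapped broadly. Over all 4799 loci the medians were 86.7 and 80.6%.

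The spread in Neuro2A cells widened at both ends of the scale. The SD over loci was 9.30 in ES and 16.4 in Neuro2A cells. Over all 4799 loci it was 8.76 and 16.8, so the wider spread was not particular to IAPLTR2b. Only 8 IAPLTR2b loci lay under 50% in ES cells, against 49 in Neuro2A cells, and the share of all loci under 50% was not computed. At the other end, 8 loci reached 95% or more in ES cells and 34 did so in Neuro2A cells, or 5.90% of them (exact binomial 95% interval over loci 4.12 to 8.15). Over all loci 4.88% were that high in Neuro2A cells. Those 34 loci had a median of 84.5% in ES cells, and all 34 were higher in Neuro2A cells, which follows in part from choosing them by their Neuro2A level. Of the 34, 31 were unpaired loci and 3 were 5′ LTRs of pairs. These were 7.31% of unpaired IAPLTR2b loci (interval 5.02 to 10.2) and 3.95% of IAPLTR2b 5′ LTRs (interval 0.82 to 11.1). The shares were 6.45 and 4.65% in the IAPLTR2_Mm group, and 9.95 and 6.67% in the IAPLTR2a group. Over all loci the order was reversed, with 4.79% of unpaired loci and 10.04% of 5′ LTRs at that level.

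Levels of 80% or above were found at 344 IAPLTR2b loci in ES cells (59.7%, interval 55.6 to 63.8) and at 158 in Neuro2A cells (27.4%, interval 23.8 to 31.3). The same 2 shares over all loci were 76.9 and 51.4%. The order of the lines turned with the limit: 10.4% of IAPLTR2b loci reached 90% in ES cells and 14.1% in Neuro2A cells. By class, 217 IAPLTR2b loci were at or above 80% in ES cells and between 20 and 80% in Neuro2A cells, 125 were at or above 80% in both, 197 were between the limits in both, and 32 were between the limits in ES cells and above them in Neuro2A cells. Levels under 20% occurred at 4 IAPLTR2b loci in Neuro2A cells (0.69%) and at 1 in ES cells, beside 47 (0.98%) and 2 of all 4799 loci.

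The difference between the lines favoured ES cells at 444 of 576 loci (77.1%), with a median of 8.7 percentage points and a range from -76.0 to 84.3. Neuro2A cells were higher at 132 loci and no locus was equal. Over all loci ES cells were higher at 81.4%, with a median difference of 6.1 points. For IAPLTR2_Mm these values were 77.9% and 8.7 points, and for IAPLTR2a 74.4% and 8.1 points. At 112 IAPLTR2b loci (19.4%, interval 16.3 to 22.9) ES cells were higher by 20 points or more, against a background of 14.9% of all loci. At 14 loci (2.43%) Neuro2A cells were higher by as much, against a background of 1.58%. The related groups had 24.7% (IAPLTR2_Mm, 1391 loci) and 21.9% (IAPLTR2a, 672 loci) in favour of ES cells, and 3.09 and 2.23% in favour of Neuro2A cells. After subtraction of each library's median over all loci, the IAPLTR2b median difference was 2.6 points and the counts were 70 and 27. The counts over all loci after this step were not computed.

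**Figure D1:**
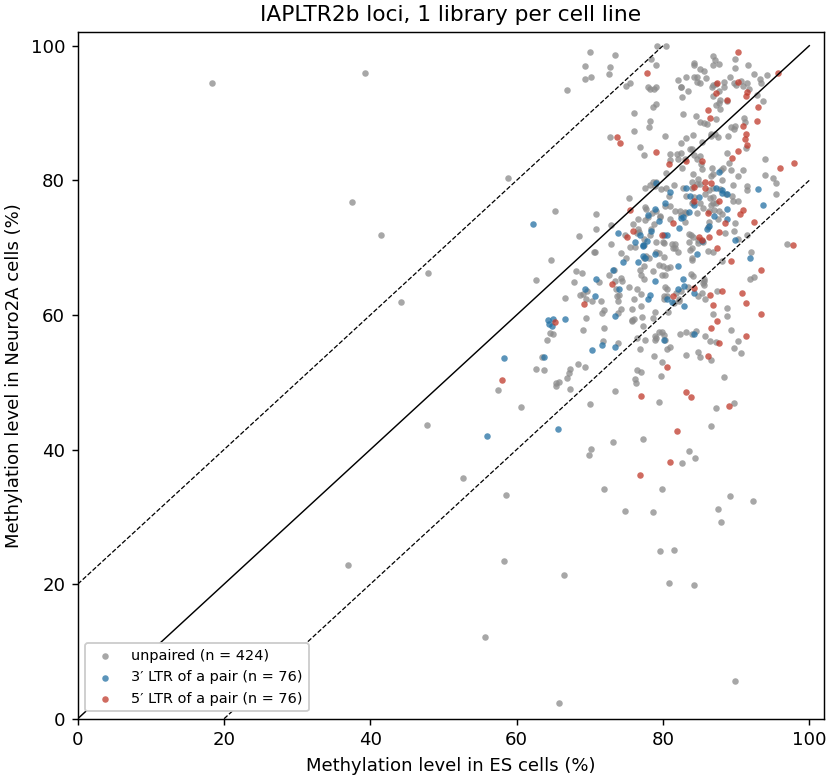
Methylation level (%) of each IAPLTR2b locus in ES cells (x axis) and Neuro2A cells (y axis), coloured by position in an LTR pair. The solid line marks equal levels and the dashed lines a difference of 20 points. Most points lie below the solid line, 112 lie on or below the lower dashed line and 14 above the upper one, all 14 of them unpaired.

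Levels varied with position in a candidate provirus. Consecutive loci of one subfamily and strand, with 1000 to 8000 bp between them, were taken as the LTRs of a candidate provirus. This gave 76 IAPLTR2b pairs, with 1773 to 6950 bp between the LTRs (median 3246), and left 424 loci unpaired. An unpaired locus may be a solitary LTR or one whose partner was not listed. Both LTRs had the same length in 36 of the 76 pairs, against 615 of all 906 pairs.

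In ES cells the 5′ LTRs ranged from 58.0 to 97.9% with a median of 86.6%, the 3′ LTRs from 56.0 to 93.7% with a median of 79.8%, and the unpaired loci from 18.4 to 97.0% with a median of 81.5%. In Neuro2A cells the 5′ LTRs ranged from 36.2 to 99.1% (median 73.8%), the 3′ LTRs from 42.0 to 81.3% (median 69.7%) and the unpaired loci from 2.3 to 100% (median 71.9%). The 3′ LTRs thus had the narrowest Neuro2A range and the 5′ LTRs the highest median in each line. The SD over loci in ES cells was 7.21 at 5′ LTRs and 8.17 at 3′ LTRs. In Neuro2A cells these SDs were 15.1 and 8.46, and that of unpaired loci was 17.6. Over all subfamilies the Neuro2A SDs were 19.6 at 5′ LTRs, 11.4 at 3′ LTRs and 17.2 at unpaired loci.

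Few IAPLTR2b 3′ LTRs were highly methylated in Neuro2A cells. Just 1 of 76 (1.32%, interval 0.033 to 7.11) reached 80%, against 27 of 76 5′ LTRs (35.5%, interval 24.9 to 47.3) and 130 of 424 unpaired loci (30.7%, interval 26.3 to 35.3). In ES cells 38 of the 3′ LTRs (50%) and 62 of the 5′ LTRs (81.6%) reached that level. These ES shares were 62.8 and 77.2% for IAPLTR2_Mm, 58.3 and 82.5% for IAPLTR2a, and 80.1 and 88.1% over all subfamilies. For IAPLTR2_Mm and IAPLTR2a, 10.7 and 10% of 3′ LTRs reached 80% in Neuro2A cells, beside 37.2 and 35% of 5′ LTRs. Over all subfamilies 453 of 906 3′ LTRs and 444 of 906 5′ LTRs reached it.

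**Figure D2:**
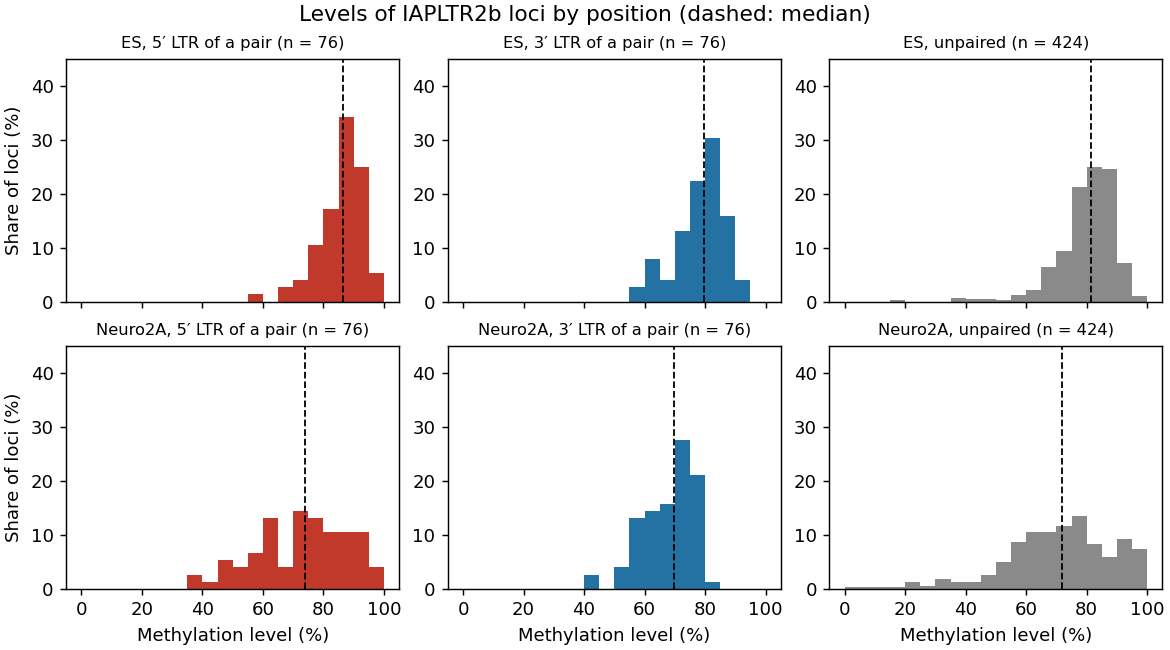
Share of IAPLTR2b loci (y axis, %) in 5-point classes of methylation level (x axis, %), for ES cells (upper row) and Neuro2A cells (lower row), by position in a pair, with dashed lines at the medians. The 3′ LTRs end at 81.3% in Neuro2A cells, whereas 5′ LTRs and unpaired loci reach 99.1 and 100%.

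Median differences between ES and Neuro2A cells were alike in the 3 positions, at 8.25 points for 5′ LTRs, 8.9 for 3′ LTRs and 8.65 for unpaired loci, but the scatter around it was not. ES cells were higher by 20 points or more at 23 of 76 5′ LTRs (30.3%), 6 of 76 3′ LTRs (7.89%) and 83 of 424 unpaired loci (19.6%). The same limit was passed by 25.5% of 5′ LTRs, 7.17% of 3′ LTRs and 14.1% of unpaired loci over all subfamilies. The reverse difference of 20 points or more was found at 14 unpaired IAPLTR2b loci (3.30%) and at no paired one. Over all subfamilies it was also rare in pairs, at 0.77% of 5′ LTRs and no 3′ LTR, beside 2.31% of unpaired loci. ES cells were the higher line at 74 of 76 3′ LTRs (97.4%), 60 of 76 5′ LTRs (78.9%) and 310 of 424 unpaired loci (73.1%). Over all subfamilies these shares were 95.4, 71.6 and 80.1%, so the high share at 3′ LTRs was not particular to IAPLTR2b.

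The levels in the lines were more closely related at 3′ LTRs than elsewhere. Across the 76 3′ LTRs Pearson's r between the lines was 0.70 (Spearman's rho 0.65), across the 76 5′ LTRs 0.33 (0.31) and across the 424 unpaired loci 0.32 (0.39). This was not particular to IAPLTR2b. In the same order r was 0.54, 0.34 and 0.36 for IAPLTR2_Mm, and 0.61, 0.29 and 0.34 for IAPLTR2a. Over all subfamilies it was 0.80, 0.30 and 0.49. The loci of each class share the same 2 libraries and resemble one another in sequence, so these coefficients are descriptions. How reads matching more than 1 copy were assigned is unknown, and its part in the narrow range of 3′ LTRs was not tested.

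Within a pair the 5′ LTR was usually the more methylated one. In ES cells it was higher in 59 of 76 pairs (77.6%), with a median excess of 7.1 points and a range from -13.7 to 35.2. In Neuro2A cells it was higher in 52 pairs (68.4%), with a median excess of 6.3 points and a range from -39.6 to 44.1. In ES cells the 5′ LTR was higher by 20 points or more in 7 IAPLTR2b pairs, against 2.65% of all 906 pairs, and lower by as much in none, against 1.55%. For Neuro2A cells 10 pairs had a 5′ LTR higher by 20 points or more, against a background of 6.95%, and 5 had one lower by as much, against 14.5%. Among 215 IAPLTR2_Mm pairs the Neuro2A counts were 29 higher and 41 lower, and among 120 IAPLTR2a pairs 18 and 17. In ES cells they were 7 and 4 for IAPLTR2_Mm, and 9 and 3 for IAPLTR2a. The sign of the ES comparison varied with the subfamily. The 5′ LTR was higher in 59.5% of 215 IAPLTR2_Mm pairs, 65.8% of 120 IAPLTR2a pairs and 45.7% of all pairs, with median excesses of 2.4, 2.8 and -0.65 points.

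**Figure D3:**
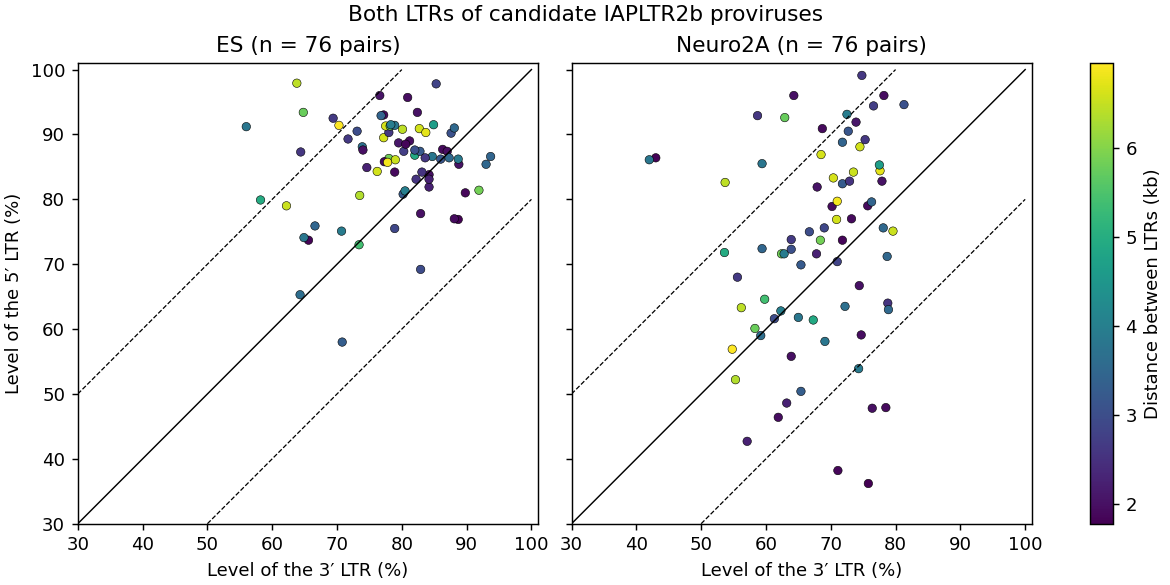
Methylation level (%) of the 5′ LTR (y axis) against that of the 3′ LTR (x axis) of each of the 76 IAPLTR2b pairs in ES cells (left) and Neuro2A cells (right), coloured by the distance between the LTRs in kb. Solid lines mark equal levels and dashed lines 20 points. Points above the solid line number 59 on the left and 52 on the right, and the 5 pairs on or below the lower dashed line occur in Neuro2A cells.

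The 5 pairs with the largest 5′ excess in Neuro2A cells combined a highly methylated 5′ LTR with a 3′ LTR of intermediate level. In the pair on chromosome 1 with its 5′ LTR at 79015387 to 79015705 and its 3′ LTR at 79019505 to 79019823 (plus strand, mm9), the 5′ LTR had 91.2% in ES and 86.1% in Neuro2A cells, and the 3′ LTR 56.0 and 42.0%. A second chromosome 1 pair (5′ LTR at 5736802 to 5737117, plus strand) had 73.7 and 86.4% at its 5′ LTR, against 65.6 and 43.0% at its 3′ LTR. In both pairs the ends differed most in Neuro2A cells, by 44.1 and 43.4 points. On chromosome 8 (5′ LTR at 106796472 to 106796812, minus strand) the 5′ LTR had 87.3 and 92.9% and the 3′ LTR 64.4 and 58.7%. The chromosome 5 pairs with 5′ LTRs at 75383868 to 75384214 (plus strand) and 146992088 to 146992407 (minus strand) had 5′ LTRs at 96.0 and 92.6% in Neuro2A cells and 3′ LTRs at 64.3 and 62.9%. In ES cells the first of these pairs had the opposite order, with 77.8% at the 5′ and 82.9% at the 3′ LTR, and the second had 91.3 and 78.2%. All 5 of these 5′ LTRs were at 86.1% or more in Neuro2A cells, and 4 of them were higher there than in ES cells.

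In the 5 pairs with the lowest 5′ LTR relative to its partner, the 5′ LTR was the end with the lower Neuro2A level while the 3′ LTR lay between 71.1 and 78.5%. The largest gap was on chromosome 3 (5′ LTR at 71778989 to 71779331, 3′ LTR at 71776873 to 71777215, minus strand), where the 5′ LTR had 76.9% in ES and 36.2% in Neuro2A cells and the 3′ LTR 88.7 and 75.8%. A chromosome 12 pair (5′ LTR at 17935460 to 17935784, plus strand) had 81.0 and 38.2% at the 5′ LTR against 89.8 and 71.1% at the 3′ LTR. The ES level of the 5′ LTR was the lower one in each of the 5 pairs too, by 0.4 to 11.8 points, so the ends lay in one order in both lines. The rest had their 5′ LTRs at 89484270 to 89484595 of chromosome X (minus strand), 66943213 to 66943549 of chromosome 11 (plus strand) and 3079395 to 3079723 of chromosome 9 (plus strand), and these stood at 47.9, 47.8 and 53.9% in Neuro2A cells. In 4 of the 5 pairs fewer than 2000 bp lay between the LTRs. Among the pairs with the largest 5′ excess, those at 5736802 of chromosome 1 (1832 bp) and 75383868 of chromosome 5 (1999 bp) were that close too. Both LTRs had the same length in all 5 pairs with the lowest 5′ LTR, beside 36 of all 76 IAPLTR2b pairs.

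A large difference between the lines was most often found at the 5′ LTR alone, as in all pairs. ES cells were higher by 20 points or more at the 5′ LTR alone in 20 pairs, at both ends in 3, at the 3′ LTR alone in 3, and at neither in 50. Over all 906 pairs these counts were 190, 41, 24 and 651. Pairs were also grouped by the distance between the LTRs, after the data were seen. In the 22 pairs with under 2500 bp the 5′ LTR was higher in 14 in ES cells and in 12 in Neuro2A cells. For the 34 pairs with 2500 to 4500 bp these counts were 27 and 23. In the 20 pairs with 4500 bp or more they were 18 and 17. The median excess of the 5′ LTR did not rise steadily with distance. From the closest to the most distant class it was 6.55, 3.65 and 8.25 points in ES cells and 2.6, 8.35 and 7.45 points in Neuro2A cells. The mean excess did rise, at 4.07, 6.0 and 11.3 points in ES cells and -1.55, 6.64 and 8.925 points in Neuro2A cells. In Neuro2A cells the 5′ LTR was lower by 20 points or more in 4 pairs of the closest class and in none of the most distant.

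IAPLTR2b LTRs were short and uniform in length. The median was 326 bp, against 391 bp for IAPLTR2a and 456 bp for IAPLTR2_Mm, and 533 of 576 loci (92.5%) measured 300 to 349 bp. The loci were divided into short (57 to 318 bp, 204 loci), middle (319 to 331 bp, 187) and long (332 to 576 bp, 185) classes. For the short, middle and long class the ES medians were 79.8, 83.1 and 83.4%, and the Neuro2A medians 66.9, 74.8 and 72.7%. Short loci were thus the lowest class in each line.

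Short loci had a median difference of 11.1 points, middle loci of 7.7 and long loci of 7.8. ES cells were higher by 20 points or more at 54 short loci (26.5%, interval 20.6 to 33.1), 24 middle loci (12.8%, interval 8.40 to 18.5) and 34 long loci (18.4%, interval 13.1 to 24.7). Short loci also made up 9 of the 14 with the reverse difference. Among unpaired loci alone the medians were 11.0, 7.7 and 5.9 points. On autosomes alone they were 10.95, 7.4 and 7.8 points. The same division gave 10.35, 8.6 and 7.2 points for IAPLTR2_Mm and 10.75, 8.95 and 5.45 for IAPLTR2a, with shorter loci again the ones with the larger median. In IAPLTR2_Mm, ES cells were higher by 20 points or more at 30.1, 24.4 and 19.4% of short, middle and long loci. For IAPLTR2a these shares were 24.8, 26.3 and 14.4%, so the middle class was highest there. The reverse difference was found at 17, 15 and 11 IAPLTR2_Mm loci and at 2, 9 and 4 IAPLTR2a loci. The frequent large differences of short loci were thus not shared by IAPLTR2a. Across single IAPLTR2b loci length was only weakly related to level, with a rho of 0.15 in ES and 0.12 in Neuro2A cells.

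The loci at the ends of the length range were few. The shortest, 57 bp on chromosome 6 (37500001 to 37500057, minus strand), had 90.2% in ES and 76.9% in Neuro2A cells. The next were 112 bp on chromosome 2 (39714202 to 39714313, plus strand) with 88.8 and 59.9%, and 120 bp on chromosome 3 (47255531 to 47255650, minus strand) with 72.0 and 34.2%. All 6 loci over 350 bp were higher in ES cells by 20 points or more, with a median of 27.0 points and Neuro2A levels from 42.7 to 63.2%. The longest of them measured 576 bp (chromosome 3, 114290775 to 114291350, minus strand) and had 84.5 and 57.6%. A 378 bp locus on chromosome 4 (23013316 to 23013693, plus strand) had 77.5 and 56.2%. The other four belong to 2 chromosome 7 pairs of identical shape, with 5′ LTRs of 360 bp, 3′ LTRs of 371 bp and 2254 bp between them, so these 6 loci are not 6 separate cases. The 4 loci of exactly 350 bp had differences from 11.2 to 63.5 points. The pair at 20882785 to 20885769 had 42.7% at its 5′ and 57.1% at its 3′ LTR in Neuro2A cells, and the pair at 23078107 to 23081091 had 48.6 and 63.2%. Their ES levels were 81.9 and 84.2%, and 83.1 and 84.2%.

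**Figure D4:**
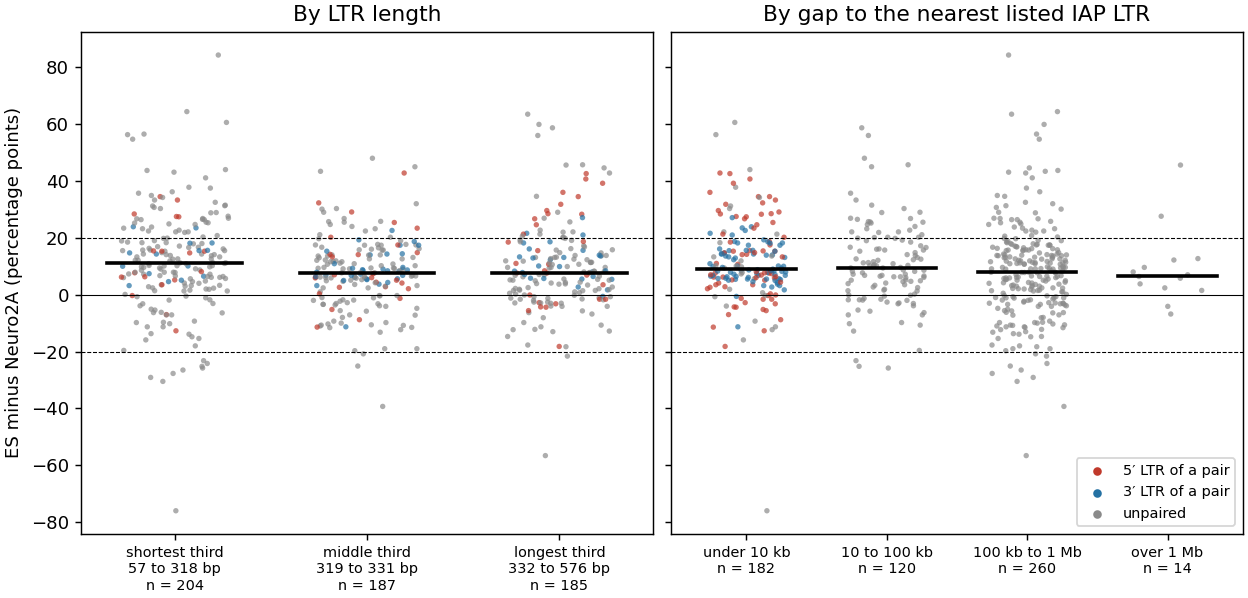
ES minus Neuro2A methylation (percentage points, y axis) of each IAPLTR2b locus by class of LTR length (left) and by gap to the nearest listed IAP LTR (right), coloured by position in a pair. Thick bars are medians and dashed lines mark 20 points. The short class has the highest median on the left (11.1 points), and medians on the right lie between 6.7 and 9.5 points.

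Isolation from other listed IAP LTRs went with small differences in the median. The gap to the nearest listed LTR of any subfamily was under 10 kb for 182 IAPLTR2b loci, 152 of them members of pairs, 10 to 100 kb for 120, 100 kb to 1 Mb for 260 and over 1 Mb for 14. Median differences in that order were 9.15, 9.5, 7.9 and 6.7 points. ES cells were higher by 20 points or more at 20.9, 24.2, 16.5 and 14.3% of loci, the last being 2 of 14 (interval 1.78 to 42.8). Among the 30 unpaired loci under 10 kb from another LTR the share was 30% (interval 14.7 to 49.4).

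Among IAPLTR2b loci, very high Neuro2A levels were most frequent at gaps of 100 kb to 1 Mb. No share by gap was computed for the other subfamilies, so whether this is particular to IAPLTR2b was not tested. Levels of 95% or more occurred at 3 of 182 loci with a gap under 10 kb (1.65%), 6 of 120 with 10 to 100 kb (5%), 24 of 260 with 100 kb to 1 Mb (9.23%) and 1 of 14 beyond 1 Mb. The SD of the Neuro2A level over loci was 14.2, 15.7, 18.1 and 14.3 in the same order. All 4 loci under 20% in Neuro2A cells also lay 100 kb to 1 Mb from their nearest listed LTR, which is the largest class with 260 loci. Pair members make up most of the closest class, so isolation and position are partly one property.

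Strand made little difference. On the plus strand (270 loci) the medians were 82.4% in ES and 71.8% in Neuro2A cells, and on the minus strand (306 loci) 82.0 and 71.8%. The median difference was 7.8 and 9.4 points, with 54 (20%) and 58 (19.0%) loci higher in ES cells by 20 points or more and 7 on each strand higher in Neuro2A cells. All 4 loci under 20% in Neuro2A cells were on the minus strand. The share of 5′ LTRs higher in ES cells by 20 points or more was 11 of 30 on the plus and 12 of 46 on the minus strand.

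On the X chromosome IAPLTR2b loci were lower in Neuro2A cells than on autosomes. The 54 loci there had a median of 82.8% in ES cells and 68.4% in Neuro2A cells, with a Neuro2A range from 2.3 to 93.1%, so none reached 95%. On autosomes the Neuro2A median was 71.9%, and 34 of 512 loci (6.64%) reached 95%. Over all subfamilies 2.87% of 418 X loci and 5.14% of autosomal loci did. ES cells were higher by 20 points or more at 17 of the 54 (31.5%, interval 19.5 to 45.6) and at 95 of 512 autosomal loci (18.6%, interval 15.3 to 22.2), against 20.8 and 14.5% over all subfamilies. The reverse was found at no IAPLTR2b locus on the X, and at only 1.44% of X loci over all subfamilies. The X loci were also shorter, with a median of 316 bp, and 28 of the 54 fell in the short class. Within that class the median difference was 15.45 points on the X and 10.95 on autosomes. In the middle class the medians were 9.6 and 7.4 points, and in the long class, with 9 X loci, 10.6 and 7.8 points.

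The 6 IAPLTR2b loci furthest below their ES level in Neuro2A cells were unpaired without exception. The first lay on chromosome X (89307339 to 89307641, minus strand, 303 bp) and had 89.9% in ES and 5.6% in Neuro2A cells. Its nearest listed LTR, an IAPLTR2a copy 125264 bp away, had 84.1 and 89.2%, so the low Neuro2A level was not shared by that neighbour. Another X locus (43998747 to 43999096, minus strand) had 65.8 and 2.3%, the lowest Neuro2A level of the 576. A chromosome 12 locus (22983559 to 22983869, minus strand) had 84.3 and 19.9%. Together with a chromosome 5 locus (6456380 to 6456700, minus strand) at 55.6 and 12.2%, they are the 4 loci under 20% in Neuro2A cells. The remaining large differences were on chromosome 10 (123903801 to 123904064, plus strand) at 80.8 and 20.2%, chromosome 2 (80816393 to 80816729, plus strand) at 92.3 and 32.4%, and chromosome 5 (61239998 to 61240339, minus strand) at 87.9 and 29.2%. At 5 of the 6 loci the nearest listed LTR had 60.4% or more in Neuro2A cells.

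The 6 loci with the largest excess in Neuro2A cells were unpaired as well. Of the 6, 4 were under 50% in ES cells, and 4 were above 94% in Neuro2A cells, with 2 loci in both sets. On chromosome 14 a 216 bp locus (12148594 to 12148809, plus strand) had 18.4% in ES and 94.4% in Neuro2A cells, while an IAPLTR2_Mm copy 9623 bp away had 68.9 and 64.8%. The loci at 152918593 to 152918924 of chromosome 3 (plus strand), 31185583 to 31185908 of chromosome 2 (minus strand) and 5401218 to 5401519 of chromosome 8 (minus strand) had ES levels of 39.3, 37.5 and 41.4% and Neuro2A levels of 95.9, 76.8 and 71.9%. All 4 of these were among the 8 IAPLTR2b loci under 50% in ES cells. The other two, at 15732480 to 15732757 of chromosome 12 and 111048135 to 111048450 of chromosome 10 (both minus strand), had ES levels of 70 and 69.3% and Neuro2A levels of 99.1 and 97.0%.

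Few loci were low in both lines. The lowest mean belonged to a 130 bp locus on chromosome 3 (44333804 to 44333933, plus strand), with 36.9% in ES and 22.8% in Neuro2A cells. It was followed by the chromosome 5 and X loci named above at 6456380 and 43998747, a chromosome 5 locus (63475511 to 63475828, minus strand) at 58.3 and 23.4%, and an X locus (107654462 to 107654780, plus strand) at 66.4 and 21.4%. Apart from the first, these loci were above 55% in ES cells, so their low mean came mainly from Neuro2A cells.

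The 5 loci with the highest mean had ES levels of at least 90.3% and Neuro2A levels of at least 95%. They included the 5′ LTRs of pairs on chromosome 3 (21059028 to 21059338, minus strand), with 95.7 and 96.0%, and chromosome 13 (4903933 to 4904258, minus strand), with 90.3 and 99.1%. Their 3′ partners had 80.9 and 78.2%, and 78.0 and 74.8%. In both pairs the 3′ LTR was thus the lower end in each line. The unpaired loci of this list lay on chromosome 1 (82100298 to 82100633 and 26672376 to 26672703, both plus strand) and chromosome 8 (10667775 to 10668108, plus strand), with Neuro2A levels of 95.7, 97.2 and 95%.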

How the data were processed

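The authors deposited 1 score per LTR, which is its methylated fraction times 1000 per the file headers. Scores were divided by 10 here to give percent. Positions are on mm9, per the file headers. The submitters' processing notes name Bowtie2, with no role or version. The caller, the read filters, the depth and the handling of reads matching more than 1 copy were not given in the sources used here. The libraries were joined by locus name in Python 3.11.15 with pandas 2.3.3 and scipy 1.17.1. Coordinates come from the names and are written 1-based. Gaps count the bases between neighbouring loci. A pair needed no other listed locus between its members. With 1 library per line no test was run. Exact binomial intervals treat loci as draws and cover neither reads nor cultures. Named loci are the 6 with the largest difference in each direction, the 5 lowest and 5 highest means, the 3 shortest and 3 longest, and the 5 pairs with the largest 5′ minus 3′ Neuro2A difference each way. Other loci, the classes of pair distance and the limits of 50 and 95% were chosen after their values were seen. The members and classes were chosen with earlier results of these data known. Alternatives were other limits, centring, means, autosomes, 1 locus per 100 kb, unpaired loci, other length, gap and pair rules. Counting and pairing were tested on simulated data. LTR sequences and mm9 genes were not used here.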

Additional observations from a re-analysis of the deposited data

How the results depend on the processing

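No paired analysis was possible because either line is represented by a single library. Of 84 values under the alternatives, 67 stayed within the binomial interval of the median or share over loci or, for counts, within 1.5 times, and 17 moved further. Centring by construction turns any ES excess under 6.1 points negative. It could not change a sign at the 27 loci named singly, where the smallest ES excess was 13.3 points. The order of the lines in the share of high loci reversed at a limit of 90%. With limits of 10 and 90%, 10.4% of loci were high in ES and 14.1% in Neuro2A cells, and 0 and 2 loci were low. The mean ES level was 80.6% beside a median of 82.2%. With limits of 30 and 70%, 88.9 and 55.9% were high, and 11 were low in Neuro2A cells. On autosomes 2 loci were low in Neuro2A cells. Differences of 10 points or more numbered 263 in favour of ES and 50 in favour of Neuro2A cells, and those of 40 points or more 24 and 2. Centring, which subtracts 6.1 points by construction, gave a median difference of 2.6 points and counts of 70 and 27. The shares over all loci were not computed at these limits or after centring, so these counts are not set against a background. The long class, limited to 350 bp or more, had a median difference of 27.0 points, over 10 loci. No IAPLTR2b locus was at 0, so leaving such loci out changed nothing. Of the 27 loci named singly, 20 differed by 20 points or more, and 18 did after centring. These counts are in part fixed, because 6 loci in each direction were chosen by their difference. Depth is unknown, so single loci have no stated precision.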

Other observations

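Unpaired IAPLTR2b loci were compared with their nearest listed LTR of any subfamily. Over 111 couples of such a locus and its nearest listed LTR 10 to 100 kb away, Spearman's rho of the Neuro2A levels was 0.31 and that of the ES levels 0.090. For 249 couples 100 kb to 1 Mb apart these were 0.21 and 0.097. Over 25 couples under 10 kb apart they were 0.24 and 0.23, with Pearson's r of 0.14 and 0.40, so the larger coefficient in Neuro2A cells did not extend to the closest couples. The members of a couple share their 2 libraries, some LTRs enter more than 1 couple, and the coefficients are descriptions.

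The 57 bp locus on chromosome 6, the shortest of the 576, starts one base after position 37500000, a multiple of 500 kb. There an IAPLTR1a_Mm locus of 276 bp on the same strand ends (37499725 to 37500000), with 88.2% in ES and 72.5% in Neuro2A cells beside 90.2 and 76.9%. Together they span 333 bp. The 120 bp locus on chromosome 3 overlaps an IAPLTR2_Mm locus of the opposite strand (47255258 to 47255532) by 2 bp, and that locus had 92.1 and 87.2% beside 72.0 and 34.2%. These were the only IAPLTR2b loci that touched another listed locus.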
